A study of Mus musculus with 6 samples.

Results

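The Runx genes encode 3 related transcription factors, Runx1, Runx2 and Runx3. They were followed here with Cbfb, which encodes their shared binding partner, and Runx1t1, which encodes a corepressor, in tibialis anterior muscle of mice with and without exon 51 of the dystrophin gene Dmd. These 5 genes were picked by name out of 54232 genes in the count table, because Runx1 was higher in the mutant muscle. All 5 passed the filter on low counts that left 14335 genes for testing. The contrast of mutant against wild type chose the set, so the values of its members in that contrast are a description and carry no test.

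Tibialis anterior is a fast-twitch muscle at the front of the lower hind limb. It was taken from C57BL6 mice aged 1 month, and stranded mRNA libraries were sequenced. The wild-type group (WT 1, WT 2 and WT 3) is labelled wild type, and the mutant group (D51 4, D51 5 and D51 6, genotype Delta 51) lacks Dmd exon 51. No treatment is named for either group. Within a genotype the 3 libraries are labelled as biological replicates, with nothing on litters or days.

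Runx proteins bind DNA through a conserved Runt domain. Cbfb does not bind DNA itself and raises the affinity and stability of the Runx protein it pairs with. Runx1 is best known from blood formation, and in muscle it is low in innervated fibres, is induced after denervation and is present in proliferating myoblasts. Runx2 directs bone formation, and Runx3 acts in cytotoxic T cells and in sensory neurons. Runx1t1 belongs to a family of corepressors and is the partner fused to RUNX1 in a form of acute myeloid leukaemia.

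Libraries held 15681945 to 21020353 assigned reads. Levels below are CPM unless another scale is named, the usual counts scaled to a common library size, here after TMM, edgeR's correction for composition. Dmd, the targeted gene, ranged from 235 to 266 CPM in the WT libraries and from 46.4 to 51.1 CPM in the D51 libraries, a log2 fold change of -2.37 (SE 0.0944, adjusted p = 2.77e-05 by edgeR), counted over the whole gene and not over exon 51. The 8 muscle fibre markers summed to 120833 to 123873 CPM in WT and to 79505 to 111970 CPM in D51. None of these markers was at 0 in any library. Along the first principal component, which held 72.2% of the variance, D51 6 (30.6) stood nearer to WT (-58.1 to -38.1) than D51 4 (51.6) and D51 5 (55.1). D51 6 was the lowest of the D51 libraries in 67.5% of the 2309 genes called higher, where its rise was a median of 64.1% of the mean rise in D51 4 and D51 5.

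In GRCm38, Runx1 (ENSMUSG00000022952) lies on the reverse strand of chromosome 16 from 92601466 to 92826149, with 7 transcript models in GENCODE M21. Runx2 (ENSMUSG00000039153) lies on the reverse strand of chromosome 17 from 44495987 to 44814797. Runx3 (ENSMUSG00000070691) and Runx1t1 (ENSMUSG00000006586) lie on the forward strand of chromosome 4, from 135120652 to 135177990 and from 13743436 to 13893649. Cbfb (ENSMUSG00000031885) lies on the forward strand of chromosome 8 from 105170674 to 105217989. Runx genes are known for a pair of alternative promoters, a distal one and a proximal one, and counts summed over a gene cannot tell which was used. RefSeq promoter windows on GRCm38.p6, running from 250 bases before to 50 bases after an annotated start, matched 4 of the 5 members: 2 windows for Runx1, 2 for Runx3, 1 for Runx2 and 1 for Cbfb. Runx1t1 had no entry.

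The 3 Runx genes share a pair of Runx motifs, in the distal windows of Runx1 and Runx3 and in the window of Runx2. The motif searched was ACCACA on both strands (TGTGGT on the other), the core of the site that Runx proteins themselves bind, and the paired form holds it at both ends. The stretches are shown 5′ to 3′ along the gene, with the paired motif in capitals.
Runx1, chr16:92826025-92826054, reverse strand: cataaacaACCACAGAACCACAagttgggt
Runx2, chr17:44814583-44814612, reverse strand: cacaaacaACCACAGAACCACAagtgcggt
Runx3, chr4:135120503-135120532, forward strand: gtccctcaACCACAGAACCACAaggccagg

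The 3 stretches have 18 bases in common around the pair (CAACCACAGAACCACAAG). Single ACCACA motifs occur in 16.8% of 32851 promoter windows of the same length, whereas the paired form ACCACAGAACCACA occurs in 4 windows (0.0122%). The paired form was defined as the longest stretch, with the motif at both ends, that stands in a window of each of the 3 Runx genes. It was then counted over all windows, so its presence in these 3 genes was fixed in advance and is a description. Those 4 windows belong to Runx1, Runx2, Runx3 and the predicted gene Gm16225, whose window overlaps that of Runx3 on the opposite strand. Counted from the RefSeq start sites (92826074 for Runx1, 44814627 for Runx2 and 135120645 for Runx3, each start being base 1), the first base of the pair is base 29 for Runx1 and base 24 for Runx2, both inside annotated exons, and position -134 for Runx3. The GENCODE ends of Runx1 and Runx2 given above lie upstream of these start sites. The proximal windows of Runx1 and Runx3 and the window of Cbfb hold no ACCACA on either strand. An AP-1 motif, TGANTCA, is absent from all 6 windows and present in 7.81% of windows overall. These matches describe letters in a window and were not tested for binding.

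**Figure D1:**
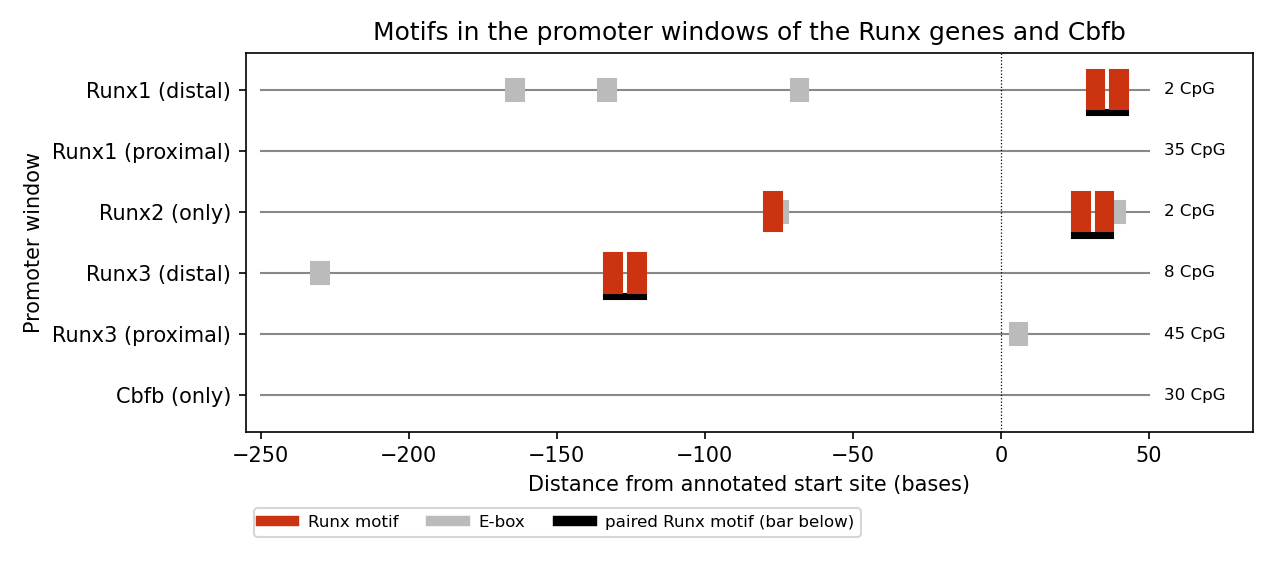
Positions of Runx motifs (red), E-boxes (CANNTG, grey) and the paired Runx motif (black bar below) in 6 promoter windows, by distance in bases from the annotated start site, with the CpG count of each window at the right. The paired motif is in the distal windows of Runx1 and Runx3 and in the window of Runx2.

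The pair of Runx1 promoters differs in base composition, which is why both are printed, with CG dinucleotides in capitals and only bases outside annotated exons shown. The distal window has 2 CpG and 45.0% G and C, and the proximal one has 35 CpG and 69.0%, against medians of 7 CpG and 52.7% over all windows.
Runx1 distal, chr16:92826150-92826324, reverse strand: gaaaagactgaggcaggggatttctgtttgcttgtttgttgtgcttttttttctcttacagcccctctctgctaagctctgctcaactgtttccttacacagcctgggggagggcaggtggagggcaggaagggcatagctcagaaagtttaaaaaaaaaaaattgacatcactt
Runx1 proximal, chr16:92697330-92697579, reverse strand: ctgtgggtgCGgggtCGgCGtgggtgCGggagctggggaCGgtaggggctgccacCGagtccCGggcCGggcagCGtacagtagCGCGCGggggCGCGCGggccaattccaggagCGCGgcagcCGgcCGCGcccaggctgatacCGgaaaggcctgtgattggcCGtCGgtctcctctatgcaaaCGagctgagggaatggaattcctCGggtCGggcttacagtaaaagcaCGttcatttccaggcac

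The Runx2 window resembled the distal Runx1 window, with 2 CpG and 45.3% G and C. The proximal Runx3 window had 45 CpG and the Cbfb window 30.

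Runx1 was higher in every D51 library. Reads assigned to it numbered 48, 52 and 73 in the WT libraries, in order, against 695, 753 and 364 in the D51 libraries, or 2.66, 2.85 and 5.23 CPM against 29.7, 32.9 and 18.9 CPM. WT 3 was the highest wild-type library and D51 6 the lowest mutant one, and the lowest D51 value stood 3.62 times above the highest WT value. The group means were 3.58 ± 1.43 and 27.2 ± 7.36 CPM (SD, n = 3 each). The fitted log2 fold change was 2.95 (SE 0.299, 95% interval 2.27 to 3.64), a 7.74-fold difference, which ranked 244 of 14335 genes from the highest down. Without D51 6 the log2 fold change was 3.15, and without WT 3 it was 3.3.

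Runx2 and Runx3 were higher as well, from lower levels. For Runx2 the libraries held 26, 22 and 30 counts in WT and 143, 153 and 95 in D51, or 1.44, 1.21 and 2.15 CPM against 6.12, 6.69 and 4.93 CPM. Its log2 fold change was 1.91 (SE 0.248, 95% interval 1.34 to 2.48). For Runx3 the counts were 7, 4 and 9 in WT and 60, 60 and 30 in D51, or 0.387, 0.219 and 0.645 CPM against 2.57, 2.62 and 1.56 CPM. The log2 fold change of Runx3 was 2.47 (SE 0.399, 95% interval 1.55 to 3.39), with the widest interval of the 5 genes and the fewest counts. The groups did not overlap for either gene. As with Runx1, WT 3 was highest among WT and D51 6 lowest among D51.

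Cbfb, the partner that all Runx proteins share, was far more abundant and did not follow them. Its values were 113, 121 and 129 CPM in WT and 106, 97.6 and 150 CPM in D51, so the WT values lay inside the D51 range. D51 6, the lowest mutant library for each Runx gene, was the highest of all 6 for Cbfb. The log2 fold change of Cbfb was -0.04 (SE 0.161, 95% interval -0.41 to 0.33). It was 0.30 when libraries were scaled to their totals alone, where the median of all genes tested was 0.34. On the deposited RPKM values it was 0.28, with medians of all genes of 0.32 and 0.21 at pseudocounts of 0.1 and 1. Without D51 4 or D51 5 it was 0.03 or 0.09.

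Runx1t1, the corepressor, had levels of 3.98, 2.74 and 3.15 CPM in WT against 3.55, 3.63 and 3.48 CPM in D51. The D51 values lay within the WT range. Its fitted change was 0.11 on the log2 scale (SE 0.194, 95% interval -0.34 to 0.56). It was 0.46 when libraries were scaled to their totals alone, where the median of all genes tested was 0.34. The interval leaves room for a change of up to 1.47-fold.

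In the edgeR fit over all genes, 3 of the 5 members passed an adjusted p under 0.05 as higher and 0 as lower, where 28.0% of all genes tested were called, 16.1% higher and 11.9% lower. The 3 Runx genes were also the members whose groups did not overlap, all upward, as in 23.8% of genes tested. Since the contrast chose these genes, nothing is read from either count. The 3 calls were present under each of the 13 alternative settings. In the authors' deposited table the log2 fold changes are 2.90 for Runx1, 1.88 for Runx2, 2.44 for Runx3, -0.07 for Cbfb and 0.07 for Runx1t1.

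**Figure D2:**
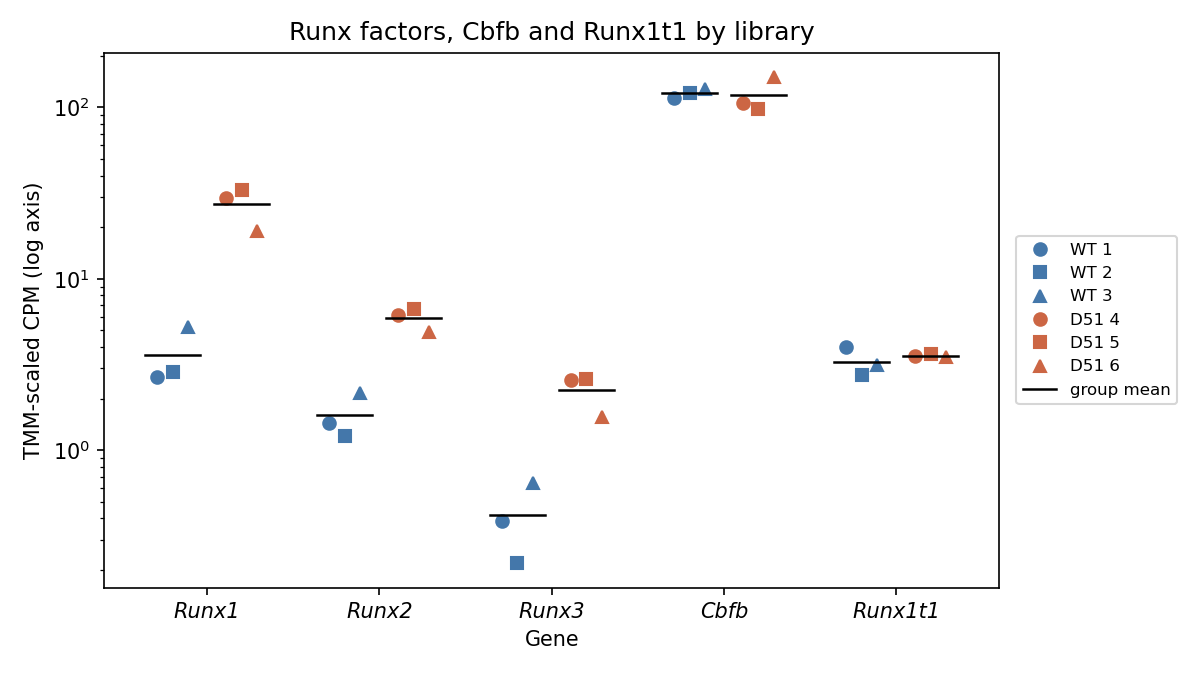
TMM-scaled CPM on a log axis for the 5 genes in the 3 WT (blue) and 3 D51 (orange) libraries, 1 symbol a library, with black lines at group means. Runx1, Runx2 and Runx3 are apart between the groups with D51 6 lowest among D51, whereas Cbfb and Runx1t1 overlap.

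**Figure D3:**
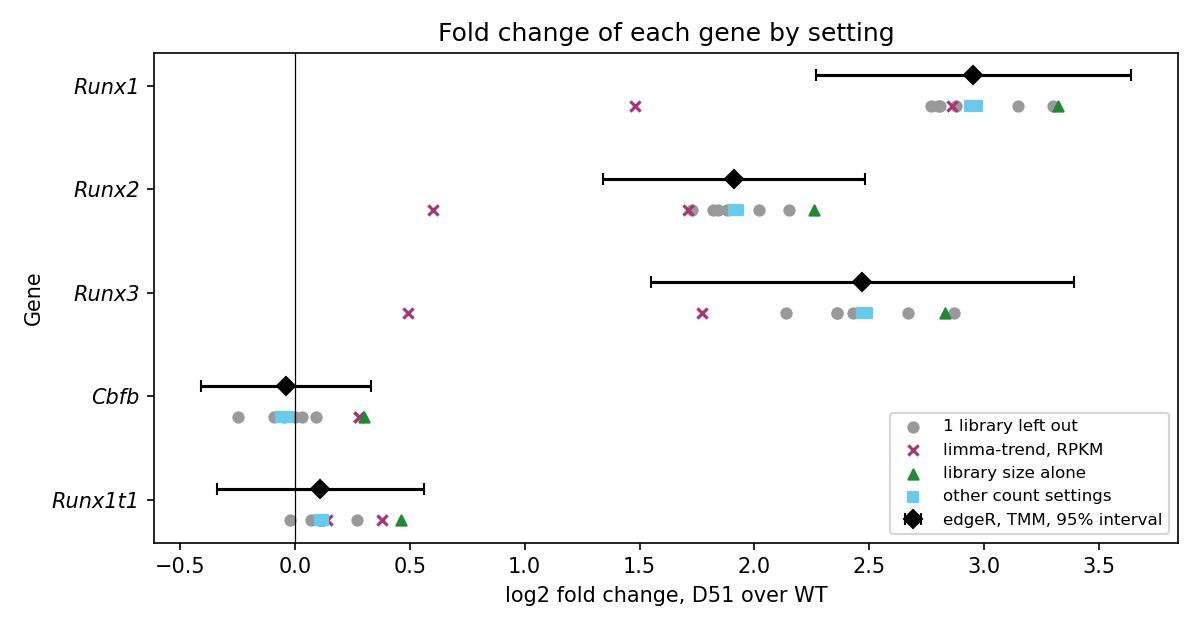
Log2 fold change of D51 over WT for each gene, with the edgeR estimate and its 95% interval (black) above the values under alternative settings. Runx1, Runx2 and Runx3 stay above 0 under every setting drawn, and Cbfb lies on both sides of 0.

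Levels of different genes can be compared only per length, so counts were also divided by the deposited exon length (RPKM on TMM-scaled libraries). In WT the order of mean levels was Cbfb (34.8 ± 2.35 RPKM), Runx1t1 (0.414 ± 0.0796), Runx1 (0.298 ± 0.119), Runx2 (0.181 ± 0.0556) and Runx3 (0.0834 ± 0.0428). The ranges of Runx1t1 and Runx1 overlapped, as did those of Runx1 and Runx2. In D51 Runx1 (2.26 ± 0.612 RPKM) was second to Cbfb (33.9 ± 8.16), followed by Runx2 (0.669 ± 0.102), Runx3 (0.450 ± 0.120) and Runx1t1 (0.446 ± 0.00955). Runx1t1 then lay within the range of Runx3. The length is 1 value per gene, and a shift between isoforms of unequal length would alter these levels.

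The summed Runx level was 0.461, 0.417 and 0.807 RPKM in WT 1 to 3 and 3.68, 4.02 and 2.44 RPKM in D51 4 to 6. Runx1 supplied 47.9% to 56.8% of that sum in WT and 64.4% to 68.1% in D51, with no overlap. The share of Runx2 was 30.1% to 35.3% in WT and 18.8% to 22.9% in D51, again with no overlap, and the Runx3 share overlapped (10.5% to 16.8% and 12.8% to 13.9%). Cbfb mRNA exceeded the summed Runx mRNA in every library. The ratio of Cbfb to the sum was 70.5, 83.2 and 46.1 in WT and 8.26, 6.97 and 17.7 in D51. These shares do not depend on library scaling, but they come from the contrast that chose the genes and carry no test.

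**Figure D4:**
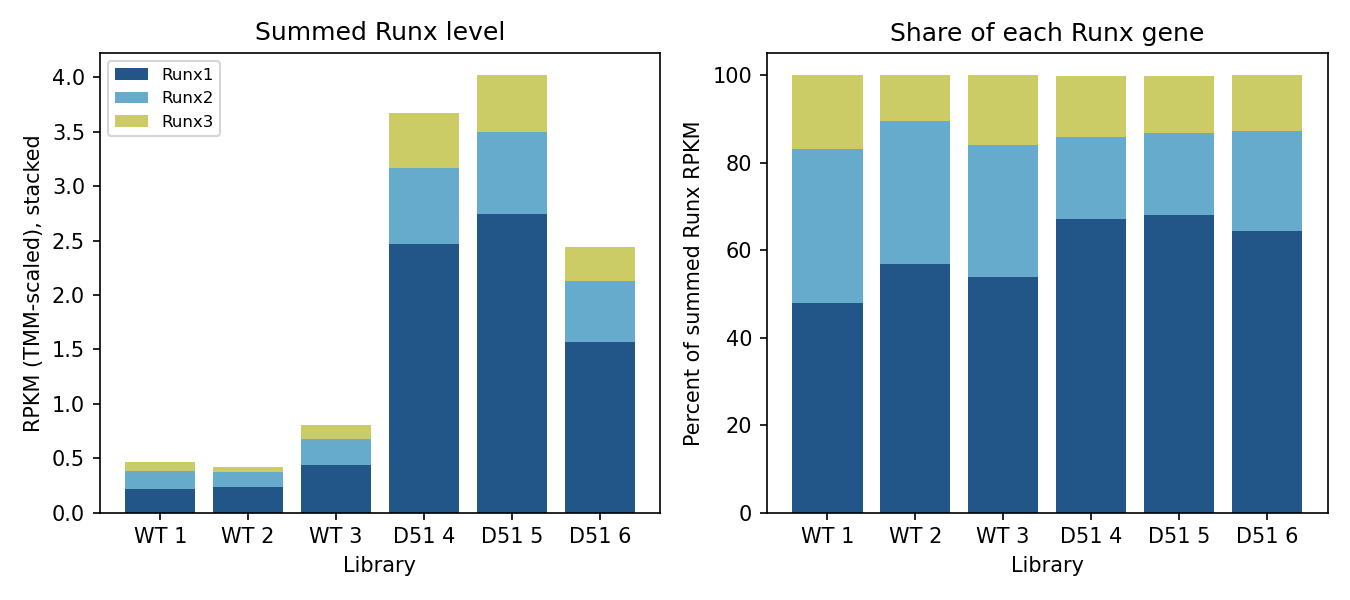
Left, stacked RPKM of Runx1, Runx2 and Runx3 in each library; right, the percentage of their sum that each gene supplied. The sum is 0.417 to 0.807 in WT and 2.44 to 4.02 in D51, and the Runx1 share is 47.9% to 56.8% in WT and 64.4% to 68.1% in D51.

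Antisense genes overlap Runx1, Runx2 and Runx3, and no source used here says whether the authors counted by strand, so reads of a gene and its antisense partner may not be separated. Their counts were small. Runx2os1, on the strand opposite Runx2, had 2 counts over the WT libraries and 20 over the D51 libraries, and Runx2os2 and Runx2os3 had 2 and 0 counts in all. Supt3, a protein-coding gene opposite Runx2, ranged from 5.30 to 5.42 CPM in WT and from 5.61 to 6.33 CPM in D51. Antisense Gm26626 at Runx1 had 2 counts over the 6 libraries and Gm16224 at Runx3 had 0.

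In a list of corepressor genes and their relatives, 13 transcripts were tested, of which 1 was higher and 2 were lower. Over all genes tested 16.1% were higher and 11.9% lower, so nothing is read from these counts. The list median log2 fold change was -0.26, against -0.01 for all genes tested. Under scaling to library totals alone 3 were higher and 1 lower, with a median of 0.09 against 0.34 for all genes tested. Aes, the short Groucho family member now called Tle5, fell from 401 ± 51.8 to 237 ± 8.87 CPM (-0.76 on the log2 scale, SE 0.116, adjusted p = 0.00345 by edgeR). Tle1, a Groucho corepressor, was at 29.1 ± 1.81 and 20.6 ± 3.39 CPM (-0.50, edgeR adjusted p = 0.0261), a call that ended under library totals (-0.14) and without WT 2 (-0.47), WT 3 (-0.49) or D51 4 (-0.37). Its relative Tle3 rose from 15.8 ± 1.90 to 25 ± 1.67 CPM (0.66, edgeR adjusted p = 0.00586). Leaving out D51 6 gave 4 lower genes in this list, and leaving out WT 2 or D51 4 gave 1. The relatives of Runx1t1, Cbfa2t2 (0.10) and Cbfa2t3 (-0.32), were not called and are named after their values were seen.

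Coactivators and enzymes that modify Runx proteins gave 1 higher and 5 lower genes of 13 (median log2 fold change -0.28). Over all genes tested 16.1% were higher and 11.9% lower (median -0.01). Under library totals alone the list gave 4 higher and 1 lower, with a median of 0.08 against 0.34 for all genes tested. Wwp1, a ubiquitin ligase, fell from 596 ± 21.3 to 357 ± 65.0 CPM (-0.74, SE 0.137, edgeR adjusted p = 0.00721). The acetyltransferase gene Kat6b (-0.49) and the arginine methyltransferase gene Carm1 (-0.54) were lower by the TMM fit, and their calls ended under library totals (-0.15 and -0.20). Without WT 2 the call of Carm1 also ended (-0.53). Ep300 (-0.50) and Crebbp (-0.34), which encode acetyltransferase coactivators and were named after their values were seen, were the other lower genes. Cdk6, a cell cycle kinase whose product binds Runx1, rose from 7.04 ± 1.05 to 21.4 ± 7.14 CPM (1.61, SE 0.247, edgeR adjusted p = 0.00347). Leaving out D51 6 gave 8 lower genes in this list, and leaving out WT 2 gave 2.

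Factors that bind DNA next to Runx proteins, listed together with the bridging protein gene Lmo2, moved both ways. Of the 15, 6 were higher and 2 lower (median log2 fold change 0.03), where 16.1% of all genes tested were higher and 11.9% lower. Spi1, the myeloid factor PU.1, rose from 1.53 ± 0.581 to 8.72 ± 2.73 CPM (2.52, SE 0.341, edgeR adjusted p = 0.00227). Cebpa, a myeloid and adipocyte factor, rose from 3.83 ± 0.859 to 16.1 ± 5.52 CPM (2.07, SE 0.286), and Lmo2, a bridging protein of blood and vessel cells, from 7.15 ± 0.789 to 13.4 ± 2.42 CPM (0.91, SE 0.165). The remaining higher genes were the AP-1 genes Fos (1.2), Junb (1.33) and Fosl2 (0.70), named after their values were seen. Erg, an endothelial ETS factor, was lower (-0.53, edgeR adjusted p = 0.0175), a call that ended under library totals (-0.17). Gata2 (-0.63), also named after its values were seen, was the other lower gene. Under library totals alone 7 genes were higher and 0 lower, where 5394 and 334 of all 14335 genes tested were. Without WT 2, 3 were higher and 1 lower.

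Genes known to respond to denervation of muscle, where Runx1 induction is best described, were higher in 11 of 16 tested and lower in 0. Over all genes tested 16.1% were higher and 11.9% lower. The list median log2 fold change was 1.65, and 2.01 under library totals, where that of all genes tested was 0.34. Chrng, which encodes the fetal gamma subunit of the muscle nicotinic receptor, went up from 0.175 ± 0.161 to 7.99 ± 1.49 CPM (5.58, SE 0.408, edgeR adjusted p = 2.97e-04). Chrna1, the alpha subunit, stood at 14.5 ± 0.676 and 71.8 ± 1.81 CPM (2.31), and Myh3, the embryonic myosin, at 8.14 ± 1.46 and 136 ± 53.4 CPM (4.07). The ubiquitin ligase genes of atrophy, Fbxo32 (-0.62) and Trim63 (-0.18), and the deacetylase gene Hdac4 (-0.37) were not called and are named after their values were seen. In D51 6 the called genes of this list reached a median of 94.7% of the rise in the other mutant libraries, against 55.2% for Runx1, 69.4% for Runx2 and 52.4% for Runx3. That median was 64.1% over all genes called higher. In other lists it was 50.1% for DNA-binding partners, 47.7% for blood targets and 46.1% for myeloid markers. It was 72.1% for satellite cell and myoblast markers and 79.2% for fibro-adipogenic progenitor markers. The cause of these differences was not tested.

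Textbook targets of single Runx factors in other tissues were often too low to test. Over all genes tested 16.1% were called higher and 11.9% lower. Of 12 blood targets of Runx1, 5 were tested and 4 were higher (median log2 fold change 2.07): Spi1 and Cebpa, which also stand in the list above, the macrophage receptor gene Csf1r, from 18.2 ± 5.85 to 78.5 ± 26.7 CPM (2.11, SE 0.300, edgeR adjusted p = 0.00264), and Pf4 (2.06), named after its values were seen. Csf1r is counted again among the myeloid markers below. Mpo, Elane, Csf2 and Il3 had 0 counts in every library. Of 10 bone targets of Runx2, 6 were tested and 2 were higher. The median of the 6 was -0.13, and 0.15 under library totals alone, where that of all genes tested was 0.34. The 2 were Spp1, from 2.33 ± 1.35 to 142 ± 42.6 CPM (5.97, SE 0.395), and Dmp1, a bone matrix protein gene, from 0.158 ± 0.0573 to 1.61 ± 0.350 CPM (3.29, SE 0.378, edgeR adjusted p = 0.00125). The bone median rests on few genes and was 3.47 without WT 3, the library with the most Ibsp (8.59 CPM) and Mmp13 (13.1 CPM), bone and cartilage genes named after their values were seen. The osteoblast factor gene Sp7 and Bglap, which encodes osteocalcin, were among those not tested. Of 10 lymphoid targets of Runx3, 4 were tested and Cd4 was higher, from 0.356 ± 0.190 to 1.71 ± 0.410 CPM (2.29, SE 0.389, edgeR adjusted p = 0.00526). Cd4 also stands among the T and NK cell markers below. Itgae (0.20), Zbtb7b (-0.25) and Tbx21 (-0.93), named after their values were seen, were not called. The target lists do not sort genes by whether a Runx factor activates or represses them, so a higher target is not read as Runx activity. Cd8a, which Runx3 activates in cytotoxic T cells, was too low to test.

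**Figure D5:**
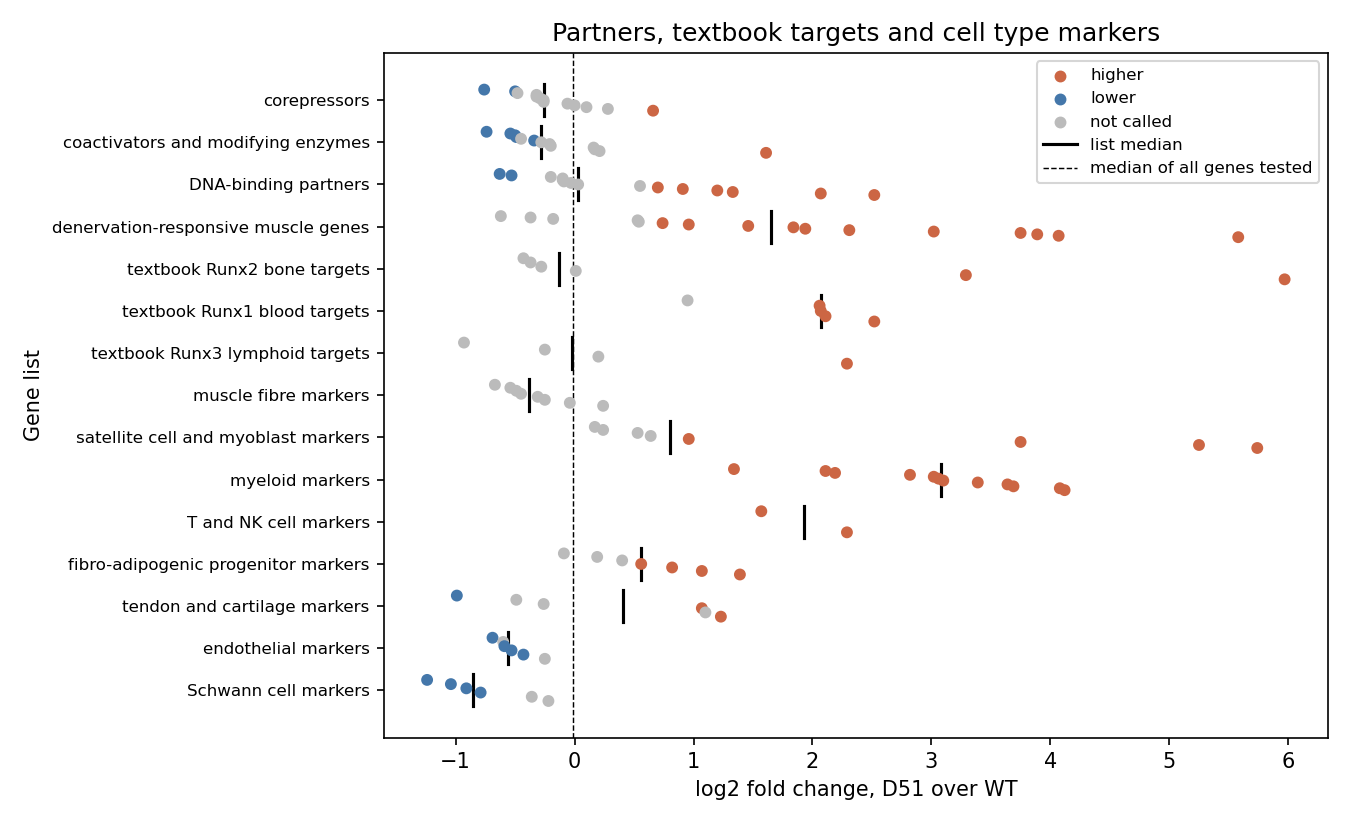
Log2 fold change of D51 over WT for each tested gene of the partner, target and marker lists, 1 point a gene, orange if called higher, blue if called lower and grey if not called, with list medians (black) and the median of all genes tested (dashed, -0.01). All 12 myeloid markers are called higher, and the medians of corepressors (-0.26) and coactivators (-0.28) lie below the dashed line.

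Markers of several cell types were read beside the Runx genes, and the lists moved in both directions. The counts of this and the later marker lists stand beside 16.1% higher and 11.9% lower over all genes tested. In these bulk samples, more cells of a type and more RNA per cell cannot be told apart. All 12 myeloid markers tested were higher (median log2 fold change 3.08), and their summed level was 115, 68.8 and 144 CPM in WT 1 to 3 and 749, 1210 and 522 CPM in D51 4 to 6. The highest wild-type library, WT 3, and the lowest mutant library, D51 6, were the same as for each Runx gene. D51 6 was the lowest D51 library in 67.5% of the 2309 genes called higher, and the share with WT 3 highest was not counted. Cd68, a macrophage lysosome protein gene, rose from 2.90 ± 1.37 to 49.1 ± 9.63 CPM (4.08, SE 0.304, edgeR adjusted p = 2.98e-04). In D51 6 the myeloid markers reached a median of 46.1% of the rise in D51 4 and D51 5, against 64.1% over all genes called higher. No myeloid marker was at 0 in any library. The part of myeloid cells in the Runx values was not tested.

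Satellite cell and myoblast markers were higher in 4 of 8 and lower in 0 (median log2 fold change 0.80). The higher ones were Myod1, Myog, Mymk and Mymx. Pax7 (0.53), Myf5 (0.64), Cdh15 (0.24) and Chodl (0.17) were not called and, like Myod1, are named after their values were seen. Under library totals alone 7 of 8 were higher, where 5394 of all 14335 genes tested were. The summed level of the list was 67.1 to 70.9 CPM in WT and 141, 172 and 131 CPM in D51 4 to 6, D51 6 again being the lowest. Myog, the factor of terminal muscle differentiation and also in the denervation list, stood at 2.60 ± 0.834 and 35.8 ± 14.8 CPM (3.75), and Mymk, the fusion protein myomaker, at 0.385 ± 0.292 and 14 ± 2.01 CPM (5.25). Fibro-adipogenic progenitor markers were higher in 4 of 7, led by Mfap5 (1.39), with sums of 565 to 747 CPM in WT and 803 to 987 CPM in D51, D51 6 being the highest. Mymx, a myoblast fusion gene, had 0 counts in WT 2, and the other markers of both lists were detected in each library. The part of these cells in the Runx values was not tested.

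T and NK cell markers were near the limit of counting. Only Cd4 and Cd3e (1.57) of 10 could be tested. Both were called higher, but Cd3e lost its call in 5 of the 6 fits that left out 1 library, with log2 fold changes of 1.23 to 1.71. Summed levels were 0.822 to 2.29 CPM in WT and 3.67 to 5.04 CPM in D51, with D51 6 the highest, and Cd3g was at 0 in WT. Among tendon and cartilage markers 2 of 6 were higher, Sox9 (1.23) and Thbs4 (1.07), and Col2a1 was lower (-0.99), a call that ended under library totals alone (-0.64) and in 5 of the 6 fits that left out 1 library (-1.12 to -0.83). Endothelial markers were lower in 4 of 6, among them Robo4 (-0.69), Tie1 (-0.59) and Tek (-0.53), with 0 calls under library totals alone, and Schwann cell markers were lower in 4 of 6, among them Prx (-1.04), or 3 of 6 under library totals. Over all 14335 genes tested, library totals alone gave 334 lower. The part of these cells in the Runx values was not tested.

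By pattern over the 6 libraries, the genes nearest to Runx1 were Apoe, Ptpn6, Rrm2, Fermt3 and Ms4a6b. Likeness was the Euclidean distance between log2 CPM values centred on each gene's mean, among 9425 genes of at least 5 mean CPM. Distances were 0.57 log2 units for Apoe, which encodes apolipoprotein E, and for the phosphatase gene Ptpn6, 0.58 for the ribonucleotide reductase gene Rrm2, and 0.61 for Fermt3, which encodes kindlin-3, and for Ms4a6b. The WT libraries held 55.2, 49.1 and 74.6 CPM of Apoe and the D51 libraries 357, 517 and 269 CPM. For Ptpn6 these were 1.16, 0.986 and 2.01 CPM against 8.30, 13.8 and 6.08 CPM. Like Runx1, each has its highest WT value in WT 3 and its lowest D51 value in D51 6, an order that choosing them by pattern favours. D51 6 was also the lowest D51 library in 67.5% of all genes called higher. Runx3 lay at 0.99 and Runx2 at 1.37 from Runx1, and Runx1t1 and Cbfb at 3.58 and 3.85. Runx2, Runx3 and Runx1t1 were below the cut of 5 mean CPM, so their distances are not ranked against those of the genes above.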

How the data were processed

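Files deposited by the authors hold unnormalised counts for each gene beside its exon length, RPKM values for a subset of genes, and a table of log2 fold changes, the likelihood-ratio score, p-values and adjusted p-values, per the file headers. A further deposited column, headed LogPValue, equals −log10 of the deposited p-values within 0.005. GRCm38, featureCounts 1.6.0 and FastQC 0.11.4 appear in the submitters' processing notes, together with version 3.30.1 of edgeR. No source used here gives the aligner, annotation release or strand setting.

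Counts of 54232 genes were filtered by edgeR's default rule and tested with the quasi-likelihood test of edgeR 4.0.16 in R 4.3.3, with TMM scaling and Benjamini-Hochberg adjustment over 14335 genes (two-sided, called at adjusted p under 0.05). The SE is the absolute log2 fold change divided by the square root of F. The labels call the libraries biological replicates without naming animals, so p-values set the difference between groups against the spread between these samples. Libraries of a group differed by 8.08 to 42.9 chi-square per degree of freedom, so no library was counted as a repeat of another.

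The members and lists were chosen with earlier results of these data known. Named genes are the members, for each list up to 3 genes of lowest adjusted p in its leading direction and 1 in the other (or 2 of highest CPM where none is called), and the 5 nearest to Runx1. A gene that this rule names is not reported here. Alternatives were DESeq2 size factors, library totals, no filter, DESeq2 1.42.0, a replicate block, limma 3.58.1 on log2 of deposited RPKM with pseudocounts of 0.1 and 1, and each library left out. Promoter sequences are from RefSeq on GRCm38.p6, and coordinates from GENCODE M21.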

Additional observations from a re-analysis of the deposited data

How the results depend on the processing

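The log2 fold changes of Runx1, Runx2 and Runx3 kept their direction and their calls under all 13 alternatives. Across the fits that left out 1 library they ranged from 2.77 to 3.3, from 1.73 to 2.15 and from 2.14 to 2.87, and that of Cbfb from -0.25 to 0.09 and of Runx1t1 from -0.02 to 0.27.

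Scaling to library totals alone moved the median of all genes by 0.35 on the log2 scale. It gave 2.26 for Runx2, 0.30 for Cbfb and 0.46 for Runx1t1, with 5394 genes called higher and 334 lower. The limma fits on deposited RPKM gave 5222 higher and 308 lower genes with a pseudocount of 0.1, and 5070 and 308 with 1. With 0.1 the value was 1.77 for Runx3, 0.28 for Cbfb and 0.38 for Runx1t1. With 1, which compresses low genes, it was 1.48 for Runx1, 0.60 for Runx2, 0.49 for Runx3 and 0.28 for Cbfb. Under each of these 3 settings corepressors gave 3 higher and 1 lower, coactivators 4 higher and 1 lower, and DNA-binding partners 0 lower, and Acta1, a fibre gene at -0.31 by the TMM fit and not called there, turned to 0.04. Acta1 was called lower by DESeq2 (-0.31) and without D51 6 (-0.36). Of 8 fibre markers the edgeR fit called 0 lower at adjusted p, and 3 were lower at an unadjusted p under 0.05. DESeq2 called 4 lower, the fit with no filter 3 and the fit without D51 6 called 7.

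DESeq2 called 4 corepressors lower. Without the filter, 1 denervation gene was lower and 2 Runx3 targets were higher. Leaving out 1 library gave 1346 (without WT 2) to 2662 (without D51 6) genes higher and 663 to 2157 lower over all genes. In those fits 1 to 4 corepressors and 2 to 8 coactivators were lower, 3 to 6 DNA-binding partners were higher and 1 to 2 lower, and 0 to 1 bone targets and 0 to 1 lymphoid targets were lower. The cause of these shifts was not tested.

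The labels number the replicates alike in both groups, but same-numbered libraries deviated from their group means with correlations of 0.352, -0.01 and 0.0562, so the numbers were not taken to pair them. Only WT 1 correlated best with its own number. With the replicate block 2508 genes were higher and 1960 lower, 1 denervation gene was lower, and Runx1, Runx2 and Runx3 were called higher. Runx3, with 4 to 9 counts in each WT library, is the member that depth limits most.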
